A study of Mus musculus with 32 samples.

Results

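The 8 arrays described here compare IL-4-treated macrophages of *Pparg* fl/- LysCre mice (mice 5 to 8) with those of *Pparg*+/- LysCre mice (mice 1 to 4), all of them treated with rosiglitazone (RSG). They were taken by their labels for cell type, treatment and genotype, and they are 8 of the 32 arrays of the series, in which each of 8 C57Bl/6 mice also gave vehicle-treated macrophages and immature dendritic cells (iDCs) with and without RSG. Both genotypes lack 1 functional *Pparg* allele and both carry LysCre, a Cre recombinase transgene driven by lysozyme M in myeloid cells. In the fl/- mice the remaining allele is flanked by loxP sites and can be removed where Cre is active, whereas the +/- mice keep it, so the controls are heterozygous and not wild-type. Bone marrow cells were cultured for 9 days with 20 ng/ml M-CSF and 20 ng/ml IL-4, and 1 μM RSG was given from plating on; control wells received DMSO and ethanol. Each array holds the RNA of 1 mouse. The extent of recombination was not measured on these arrays.

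PPARγ is a nuclear receptor that binds DNA with the retinoid X receptor and is switched on by fatty acid derivatives or by thiazolidinediones such as RSG. In macrophages and dendritic cells its ligand response controls genes of lipid uptake, transport and storage. IL-4 acts through the transcription factor STAT6 and brings macrophages to the alternatively activated state, in which *Pparg* itself is highly expressed. The comparison of genotypes in the presence of both IL-4 and RSG asks which transcripts differ when the ligand is there but the receptor gene is deleted in myeloid cells.

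Signals are given as log2 values after quantile normalization over all 32 arrays, and a probe counted as detected at a signal-to-noise ratio (S/N) of at least 3. On the 8 arrays, 41.9% to 46.2% of the 33012 noncontrol probes were detected. The number was 13959, 15250, 13933 and 13830 in mice 1 to 4 and 15126, 15227, 14743 and 14197 in mice 5 to 8. The means were 14243 ± 674 (SD, n = 4) and 14823 ± 467 (SD, n = 4), and the groups overlapped (exact two-sided permutation test, p = 0.229, where 0.0286 is the smallest p that 4 mice against 4 allow). Pearson's r across probes between arrays was 0.963 to 0.981 within the +/- group and 0.951 to 0.975 within the fl/- group. Only 324 probes of the array (0.981%) were matched to a symbol in the tables used here, and 167 of these were tested. Probes of *Pparg*, of its well-known target genes and of the defining macrophage and dendritic cell markers were not among them. The deletion and the cell type were therefore not checked on the data, and the genotypes are those of the labels. The 8 arrays were scanned on 4 days with mice 1 and 2, 3 and 4, 5 and 6, and 7 and 8 together, so every day held 1 genotype. A difference between the genotypes therefore cannot be told apart from one between their scan days.

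The fl/- genotype of the labels went with a broad change in these cells, with a count that depended on the settings. Among the 16620 probes detected on at least 3 of 4 arrays of any group, 1550 (9.33%) were called, that is, they changed by 1.5-fold or more with a limma p under 0.05 after Benjamini-Hochberg adjustment. Of these, 849 (5.11% of tested) were higher and 701 (4.22%) lower in fl/- macrophages, with a median log2 change of 1.09 and -0.89, and 759 changed at least 2-fold. An unadjusted p under 0.05 was reached by 5203 probes. The median change over all tested probes was 0.01. Most of the called probes had a measured signal on both sides, since 1130 of them were detected on all 8 arrays. A further 106 rose from below detection in every +/- mouse, and 33 of those were detected in all 4 fl/- mice. In the other direction, 21 called probes were below detection in all 4 fl/- mice.

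**Figure D1:**
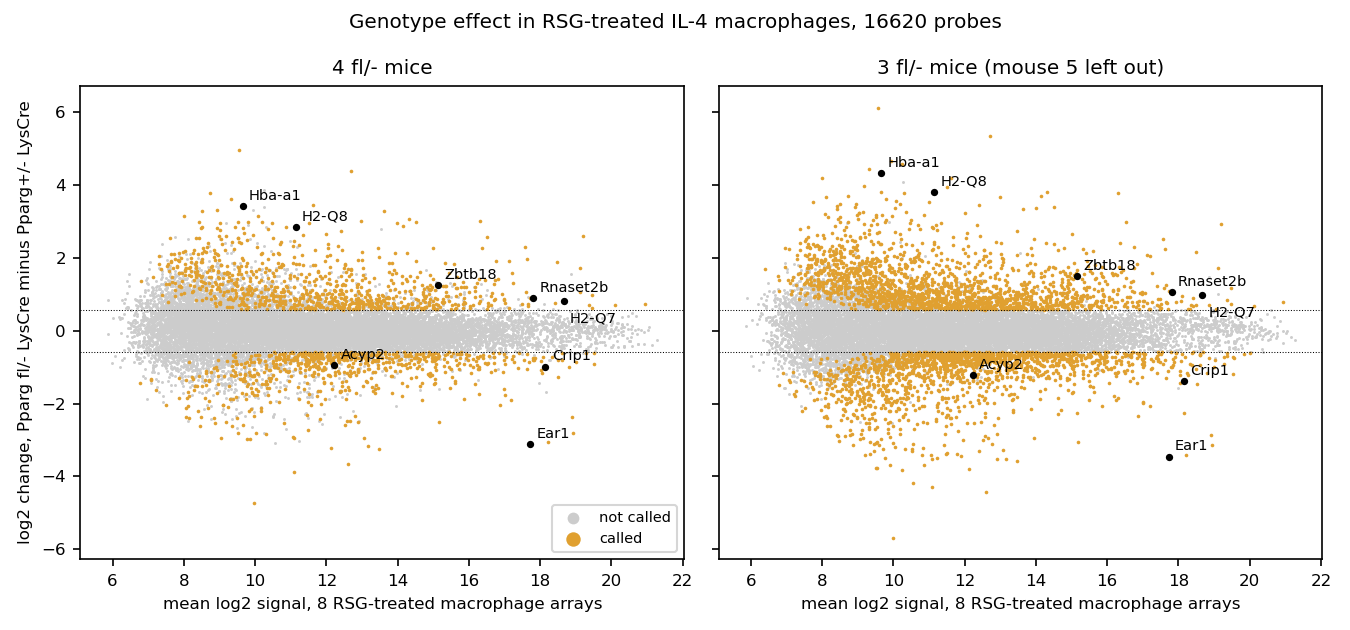
Log2 change between genotypes (fl/- minus +/-) against the mean log2 signal of the 8 RSG-treated macrophage arrays, with each of 16620 tested probes as a point, for all mice (left) and without mouse 5 (right). Called probes are orange, dotted lines mark 1.5-fold, and 8 named genes are marked in black; 1550 probes were called on the left and 3385 on the right.

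Mouse 5 stood apart from the other fl/- mice in 1 respect and only in part in another. Its levels lay with the +/- mice on the probes that best separated the genotypes, whereas its response to RSG lay nearer to that of mice 6 to 8 on 9 of the 10 probes called for a difference between RSG and vehicle without it. The other probe, mCG22990.2, had the largest response of the 10 in the +/- mice (mean log2 rise 4.37). There mouse 5 rose by 3.88, within the range of the +/- mice, and mice 6 to 8 by a mean of 0.88. Its genotype was not checked on these arrays. The main counts are therefore also given without it. With mouse 5 left out, 3385 probes (20.4%) were called, 1792 higher (10.8%) and 1593 lower (9.58%), and 6870 had an unadjusted p under 0.05. Under median scaling 1629 were higher and 1823 lower, so the balance of directions depends on the scaling. Of the 1550 probes called with all mice, 1526 were called in the same direction without mouse 5. Leaving out any other mouse lowered the count, to 629, 820, 724 and 925 without mice 1, 2, 3 and 4 and to 651, 504 and 672 without mice 6, 7 and 8. Once mouse 5 was out, leaving out a further mouse gave 2958 to 3332 calls. A random block for the scan day gave counts of 1057 with all mice and 3206 without mouse 5. The fit on the 8 arrays alone, without the vehicle-treated macrophages, called 690 and 3073.

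**Figure D2:**
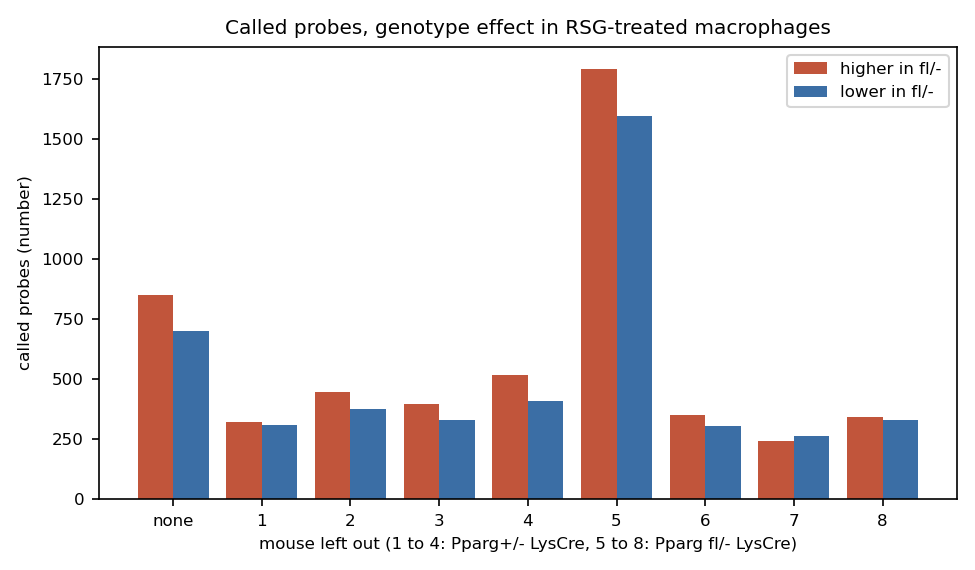
Number of probes called higher (red) and lower (blue) in fl/- macrophages when no mouse or 1 mouse is left out of the fit. Without mouse 5 the bars stand at 1792 and 1593, and without any other mouse they stay below those of the full set (849 and 701).

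To place each mouse, the 200 probes with the smallest genotype p were chosen on the other mice, and the position of the mouse was read on them between the mean of the remaining +/- mice (0) and that of the remaining fl/- mice (1). This is a description with no test. Each mouse was thus read on its own probes and its own scale, and only the scale of mouse 5 leaves mouse 5 out of the fl/- mean. In RSG-treated macrophages, the +/- mice lay at 0.0488, 0.173, 0.0979 and 0.177. Mouse 5 lay at 0.175, within the range of the +/- mice. Mice 6, 7 and 8 lay at 1.04, 1.27 and 0.848. On the same probes, mouse 5 lay at 0.0135 in its vehicle-treated macrophages and at 0.165 in its RSG-treated iDCs, beside -0.130 to 0.186 and -0.307 to 0.237 in the +/- mice. The corresponding values of mice 6 to 8 were 1.13 to 1.48 and 0.635 to 1.45. The iDC positions depended on the scaling, and under median scaling those of mice 1, 5, 7 and 8 were 0.765, 0.268, 2.02 and 1.96. Mouse 5 shared its scan day with mouse 6, and 15126 probes were detected on its array.

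**Figure D3:**
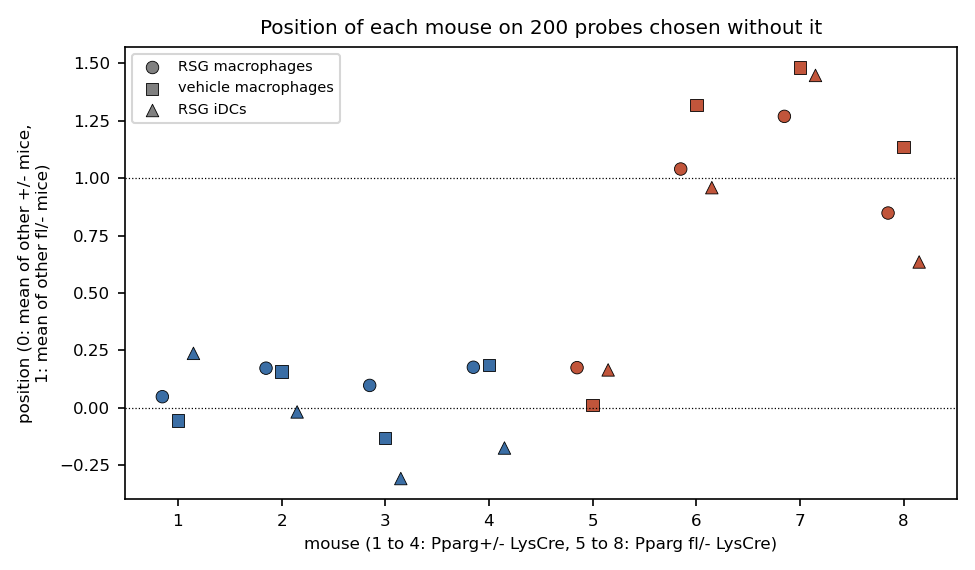
Position of each mouse on 200 probes chosen without it, read on its RSG-treated macrophages (circles), vehicle-treated macrophages (squares) and RSG-treated iDCs (triangles). Blue marks +/- and red fl/- mice; the circle of mouse 5 is at 0.175, while those of mice 6 to 8 are between 0.848 and 1.27.

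Of the 167 tested probes with a symbol, 14 were called with all mice (8.38%, against 9.33% of all probes), 10 of them higher and 4 lower. Without mouse 5, 38 were called (22.8%, against 20.4% of all probes), 24 higher and 14 lower, and these included all 14. Among the 167, the genotypes did not overlap in 27 (16.2%, as for 16.2% of all tested probes), and without mouse 5 in 61 (36.5%, against 36.6%). The symbols are those the reference happened to hold and are no sample of the genome by function.

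The largest fall among named genes was that of *Ear1*, which encodes a secreted eosinophil-associated ribonuclease of the ribonuclease A family and is known as a gene of alternatively activated macrophages. Its log2 signal was 19.21, 19.18, 19.53 and 19.23 in +/- mice 1 to 4 and 17.19, 15.84, 15.08 and 16.58 in fl/- mice 5 to 8. The groups did not overlap and mouse 5 was the highest of the fl/- mice. The change was -3.11 ± 0.51 (log2, SE, adjusted p = 0.00346), or 8.66-fold lower, and -3.45 ± 0.28 without mouse 5 (adjusted p = 6.45e-06), or 11.0-fold lower. The call held under each of the 18 alternative settings. In vehicle-treated macrophages the same mice read 17.65, 17.37, 17.66 and 17.47 (mice 1 to 4) and 17.20, 14.64, 14.59 and 15.24 (mice 5 to 8). Mouse 5 lay just below the lowest +/- mouse with vehicle and far below it with RSG, and its *Ear1* level was nearly the same with both treatments. The *Ear* genes are close copies of each other, so the probe may also read other members, and eosinophils express this family too. No other marker of eosinophils, basophils or mast cells has a named probe (1 of 11), and their part in the fall was not tested.

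The 250 bases before the start of *Ear1* are shown because this gene, detected on all 8 arrays, has the largest fall among named genes, with those of *Hba-a1*, which rose from below detection (RefSeq, GRCm38.p6). They were searched on both strands for the PPAR response element (a pair of AGGTCA repeats with 1 base between them), for a single AGGTCA, which the element contains, and for the STAT6 site (TTC and GAA with 4 bases between them), and capitals would mark a match.
Ear1, chr14:43819640-43819889, minus strand: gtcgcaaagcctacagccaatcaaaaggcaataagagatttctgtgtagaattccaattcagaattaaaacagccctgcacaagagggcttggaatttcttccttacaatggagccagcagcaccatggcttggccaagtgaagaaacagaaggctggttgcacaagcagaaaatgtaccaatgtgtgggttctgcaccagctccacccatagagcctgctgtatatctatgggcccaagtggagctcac
Hba-a1, chr11:32283422-32283671, plus strand: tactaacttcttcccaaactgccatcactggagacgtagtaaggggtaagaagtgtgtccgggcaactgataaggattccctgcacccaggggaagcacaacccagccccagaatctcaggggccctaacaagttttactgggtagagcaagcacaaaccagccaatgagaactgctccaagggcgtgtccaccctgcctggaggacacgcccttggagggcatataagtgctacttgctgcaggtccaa
Neither window holds any of the 3 motifs, nor do those of *Olfr921* and *Chrnb1*, which were called too; the table has none for *H2-Q8* and *Csprs*. Among all 32851 promoter windows of this length, 0.0335% hold the full element, 14% a single AGGTCA and 5.85% the STAT6 site. These letters are absent from these windows only, and nothing is read from that about either factor.

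Several other genes fell once mouse 5 was set aside. *Crip1*, a small LIM domain protein, read 18.61, 18.69, 18.58 and 18.69 in mice 1 to 4, 18.85 in mouse 5 and 17.50, 17.16 and 17.12 in mice 6 to 8. The +/- mice lay close together, mouse 5 was the highest of all 8 and the other fl/- mice were well below. The change was -1.38 ± 0.12 without mouse 5 (adjusted p = 9.6e-06), and -0.98 ± 0.36 with it, which was not called (adjusted p = 0.0827). *Atox1*, a copper chaperone, had the same order of mice, with 18.66 to 18.74 in the +/- mice, 18.84 in mouse 5 and 17.66 to 17.95 in the others, and a change of -0.93 ± 0.09 without mouse 5 (adjusted p = 2.91e-05) and -0.66 ± 0.27 with it, which was not called (adjusted p = 0.107). *Acyp2*, an acylphosphatase, was called both with mouse 5 (-0.94 ± 0.27, adjusted p = 0.0365) and without it (-1.22 ± 0.17, adjusted p = 0.000203), although mouse 5 at 12.58 lay among the +/- mice (12.50 to 12.89). The call with all mice ended when any of mice 1, 2, 3, 4, 6, 7 or 8 was left out (adjusted p 0.0713 to 0.123).

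**Figure D4:**
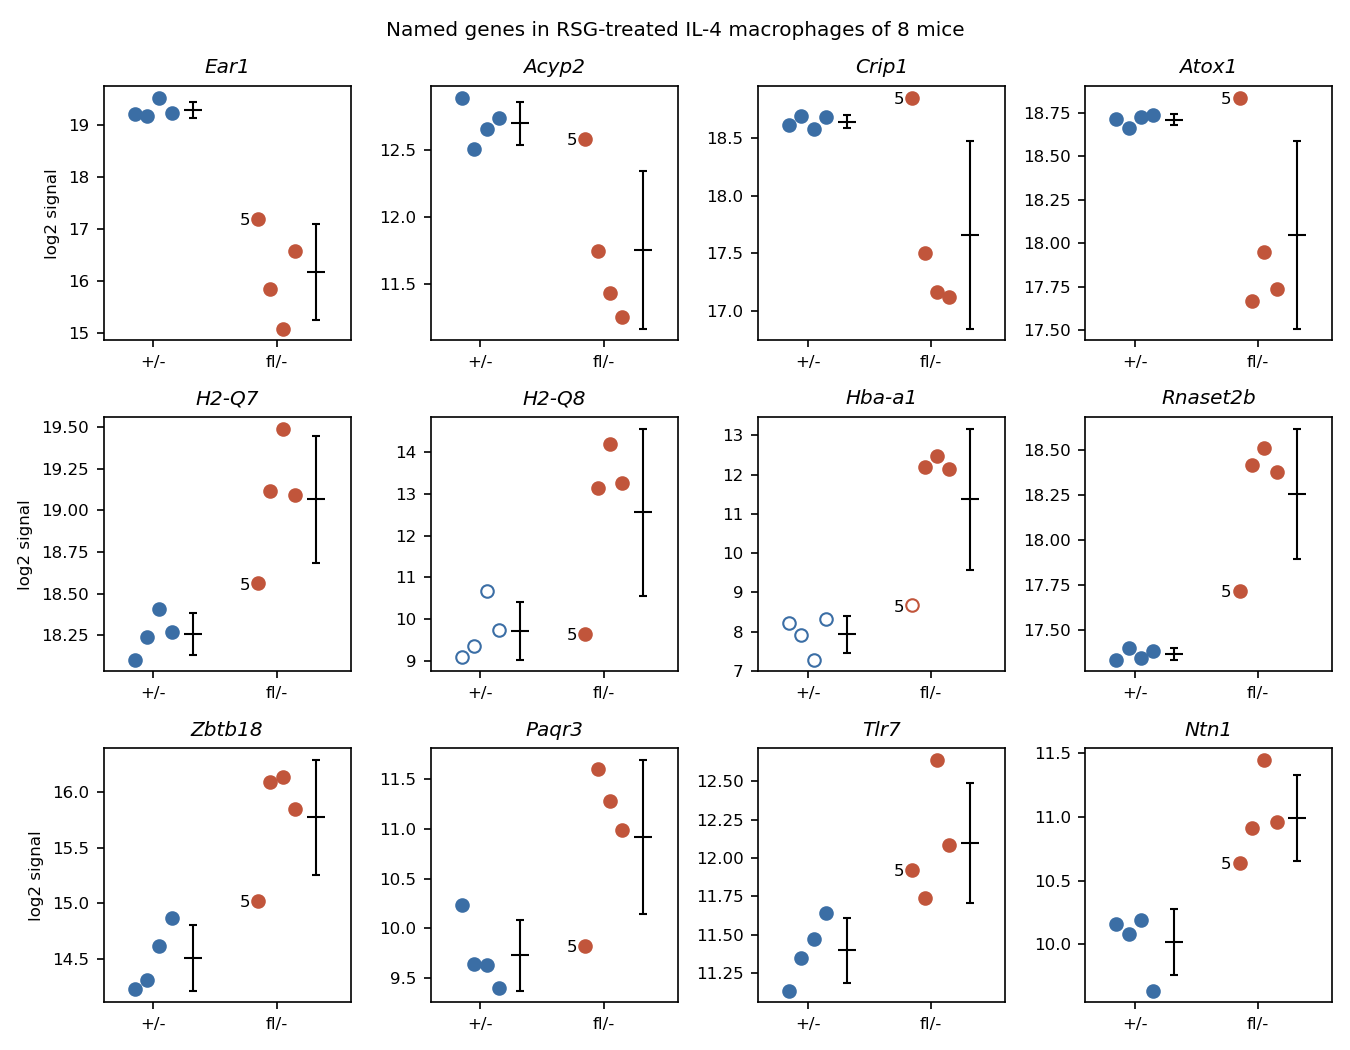
Log2 signal of 12 named genes in RSG-treated macrophages of each mouse, with the mean and SD of each group (n = 4) beside the points; blue is +/- and red is fl/-, mouse 5 is numbered, and open circles are below detection. For Crip1 and Atox1 mouse 5 is the highest of the 8, and for Ear1, H2-Q7, Rnaset2b and Zbtb18 it lies between the groups.

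*Paqr9*, a receptor of the progestin and adipoQ family, was 9.07 to 9.99 in the +/- mice and 7.83 to 8.53 in the fl/- mice, with a fitted change of -1.38 ± 0.36 (adjusted p = 0.0261). It was detected in mouse 5, at 7.87, and below detection in mice 6 to 8, so the size of the fall is not exact. *Tceal9*, related to a transcription elongation factor, fell by 0.80 on the log2 scale (SE 0.21, adjusted p = 0.0289) with no overlap. Its call with all mice was lost without each of mice 1, 2, 3, 4, 6, 7 and 8 (adjusted p 0.0558 to 0.0835), and that of *Paqr9* without mice 1, 3 and 7 (0.0691 to 0.0866). A further 8 named genes were called lower without mouse 5, with fitted changes of -1.22 to -0.65, and were not called with all mice, where the changes were -0.92 to -0.42 (adjusted p 0.0945 to 0.290). They were *Mt3* (metallothionein), *Fhl3* (LIM domain protein), *Nt5dc3* (nucleotidase family), *Trim59* (tripartite motif protein), *Coa3* (assembly of cytochrome c oxidase), *Tbc1d16* (a regulator of Rab proteins), *Mydgf* (a secreted growth factor) and *Trmt61a* (tRNA methylation). Mouse 5 lay within or above the range of the +/- mice for all of these but *Coa3*, where it was just below. *Fhl3* was below detection in mice 6 to 8 and in +/- mouse 3, so the size of its fall is not exact.

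*Hba-a1*, an adult alpha chain of hemoglobin, and *H2-Q8*, described next, rose from below detection, so the sizes of their rises are not exact and have no order. *Hba-a1* read 8.22, 7.92, 7.28 and 8.32 in mice 1 to 4, 8.67 in mouse 5 and 12.19, 12.47 and 12.15 in mice 6 to 8. It was below detection in all +/- mice and in mouse 5 and detected in the other 3 fl/- mice. The fitted change was 3.43 ± 0.89 with all mice (adjusted p = 0.0252) and 4.34 ± 0.22 without mouse 5 (adjusted p = 2.84e-07). Since the +/- values are below detection, the fitted size without mouse 5, 20.2-fold, is not exact. With all mice no fold is given, because the value of mouse 5 is below detection too. The call with all mice was lost without each of mice 1, 2, 3, 4, 6, 7 and 8 (adjusted p 0.0585 to 0.0876), and without mouse 5 it held under all 16 alternatives. The probe may also read the near-identical *Hba-a2*. Of the 14 erythroid markers listed, *Hba-a1* and *Eraf*, the alpha-globin chaperone, have a named probe, and *Eraf* was below detection on all 8 arrays (6.16 to 7.63). The summed signal of both, on the linear scale, was 235 to 473 in +/- mice and 606 to 5746 in fl/- mice. The sums of the +/- mice and of mouse 5 (606) hold only values below detection, so their order is not read. A part of erythroid cells in this rise was not tested, and in such bulk samples a change in the share of a cell type and a change in RNA per cell cannot be told apart.

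Both nonclassical MHC class I genes with a named probe were higher, and they were the only members of the antigen presentation list that had one (2 of 28). *H2-Q8* read 9.08, 9.36, 10.67 and 9.73 in mice 1 to 4, all below detection, then 9.64 in mouse 5, where it was detected, and 13.15, 14.20 and 13.25 in mice 6 to 8. The fitted rise was 2.85 ± 0.83 with all mice (adjusted p = 0.0393), or 7.21-fold. Without mouse 5 it was 3.82 ± 0.38 (adjusted p = 2.23e-05), or 14.1-fold. The +/- values are below detection, so these sizes are not exact. *H2-Q7* was bright in every mouse, at 18.10, 18.24, 18.41 and 18.27 in mice 1 to 4 and 18.56, 19.11, 19.49 and 19.09 in mice 5 to 8. It rose by 0.81 ± 0.18 with all mice (adjusted p = 0.0136) and by 0.98 ± 0.14 without mouse 5 (adjusted p = 0.000255). Without mouse 1 the rise with the remaining mice was 0.76 (adjusted p = 0.0574), and the call of *H2-Q8* with all mice was lost without each of mice 1, 2, 3, 4, 6, 7 and 8 (adjusted p 0.0674 to 0.126). The *H2-Q* genes are neighbours and close copies, so the probes may read more than 1 of them.

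*Rnaset2b*, a ribonuclease of the lysosome, showed a small but tight difference. It was 17.34, 17.40, 17.35 and 17.39 in mice 1 to 4, 17.72 in mouse 5 and 18.42, 18.52 and 18.38 in mice 6 to 8. The rise was 0.89 ± 0.18 (adjusted p = 0.0083) and 1.07 ± 0.10 without mouse 5 (adjusted p = 1.41e-05), and it held under every alternative tried. *Zbtb18*, a zinc finger repressor of transcription, was 14.23, 14.32, 14.62 and 14.87 in mice 1 to 4, 15.02 in mouse 5 and 16.09, 16.13 and 15.84 in mice 6 to 8. It rose by 1.26 ± 0.28 (adjusted p = 0.0135), or 2.39-fold, and by 1.51 ± 0.16 without mouse 5 (adjusted p = 3.43e-05), or 2.84-fold. The first of these calls was lost without mice 1, 2, 6, 7 or 8 (adjusted p 0.0503 to 0.0572). *Paqr3*, a Golgi protein that tethers Raf kinase, was 9.41 to 10.24 in the +/- mice, 9.82 in mouse 5 and 11.60, 11.28 and 10.98 in mice 6 to 8. It was called only without mouse 5 (1.56 ± 0.25, adjusted p = 0.000702), and its value with all mice was 1.19 ± 0.40 (adjusted p = 0.061).

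*Tlr7*, the endosomal sensor of single-stranded RNA, was 11.13, 11.35, 11.47 and 11.64 in mice 1 to 4 and 11.92, 11.74, 12.64 and 12.09 in mice 5 to 8, with no overlap (0.70 ± 0.19, adjusted p = 0.0301). *Ntn1*, the guidance molecule netrin 1, was 9.63 to 10.19 in the +/- mice and 10.64 to 11.45 in the fl/- mice (0.98 ± 0.24, adjusted p = 0.0224). In both, mouse 5 lay above every +/- mouse. Their calls were less firm, since that of *Tlr7* was lost without each of mice 1, 2, 3, 7 and 8 (adjusted p 0.0594 to 0.106) and that of *Ntn1* without each of mice 1, 2, 4, 6, 7 and 8 (0.0569 to 0.0776). *Pcdha3*, an adhesion protein of the protocadherin alpha cluster, rose from 7.87 to 9.17 in the +/- mice to 10.10 to 10.54 in the fl/- mice (1.57 ± 0.31, adjusted p = 0.00764), and its call held under all 17 alternatives. *Olfr921*, an olfactory receptor (2.13 ± 0.59, adjusted p = 0.0323), and *Chrnb1*, a subunit of the muscle acetylcholine receptor (1.84 ± 0.52, adjusted p = 0.0337), were also called, at levels near the noise. Of the 4 +/- arrays, *Olfr921* was detected on 1 and *Chrnb1* on none, and *Chrnb1* was detected on 1 of the 4 fl/- arrays, so that its values are mostly noise in both groups. Their calls were lost without each of mice 1, 2, 3, 6, 7 and 8 for *Olfr921* (adjusted p 0.0703 to 0.0984) and without each of mice 1, 2, 3, 4, 6 and 7 for *Chrnb1* (0.0629 to 0.0887).

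Without mouse 5, the rises among named genes further included *Heg1* (1.46 ± 0.44), *Notum* (1.19 ± 0.35) and *Akap7* (1.09 ± 0.33). Among the +/- mice, *Heg1* was below detection in mice 1 and 2 and *Notum* in mice 1 and 4, so the sizes of these 2 rises are not exact. *Notum* is a secreted enzyme that inactivates Wnt proteins, *Heg1* a membrane protein of endothelial junctions, and *Akap7* an anchor of protein kinase A. Their adjusted p were 0.0246 for *Heg1*, 0.0229 for *Notum* and 0.0245 for *Akap7*. These calls were lost without each of mice 1, 4, 6 and 8 for *Heg1* (adjusted p 0.0772 to 0.0953), 6 and 8 for *Notum* (0.0641 to 0.101) and 1, 2, 6 and 7 for *Akap7* (0.0728 to 0.103). *Csprs*, *Olfr920* and *Zfp945* were called too (adjusted p = 0.00856, 0.00214 and 0.00573). They were below detection in all +/- mice and detected in 3, 2 and 2 of mice 6 to 8. The fitted rise of *Csprs* was 5.80-fold, which is not exact because its +/- values are below detection. No fold is given for *Olfr920* and *Zfp945*, since some of their fl/- values are noise too. None of these 6 was called with all mice, where *Heg1* just missed the threshold and *Csprs* had the highest adjusted p of them, 0.177.

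Few members of the gene lists drawn up for these cells have a named probe, so the lists say little about their pathways. Of 54 genes of PPARγ targets and lipid handling, 2 were tested and neither was called. *Sgms2*, a sphingomyelin synthase, changed by -0.10 ± 0.28 with all mice and 0.11 ± 0.14 without mouse 5, and *Epdr1*, a lysosomal protein, by 0.72 ± 0.29 (adjusted p = 0.103) and 0.79 ± 0.30 (adjusted p = 0.0633). The median of the 2 was 0.31, beside 0.01 over all tested probes. Among 18 genes of PPARγ and its partners only *Cebpb*, a transcription factor of myeloid and fat cells, was tested. Its brighter probe read 19.40 to 19.62 in +/- and 19.24 to 19.52 in fl/- mice (-0.14 ± 0.10, adjusted p = 0.372), and the other probe of the gene was not called either (-0.08, adjusted p = 0.809).

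In the list of alternative activation, *Ear1* and *Tnfsf13* were tested (2 of 42) and *Ear1* was called. *Tnfsf13*, the cytokine APRIL that sustains B cells, was 15.67, 15.42, 15.27 and 15.29 in mice 1 to 4 and 15.14, 14.69, 14.85 and 15.12 in mice 5 to 8. The groups did not overlap and the adjusted p was 0.0417, but the change of -0.46 ± 0.14 was smaller than 1.5-fold, so it was not called. Among the inflammatory genes only *Nlrp3*, the inflammasome sensor, was tested (1 of 50), and it was near the noise at 6.56 to 9.61 with no call (adjusted p = 0.684). No cell cycle gene of the list had a named probe. Among receptors and secreted factors, *Ramp3* (0.07 ± 0.23), *Sfrp4* (-0.05 ± 0.72) and *Ramp1* (-1.17 ± 0.38, adjusted p = 0.0552) were not called, and *Sfrp4* and *Ramp1* were detected on 1 and 0 of the 8 arrays. Among transcription factors, *Zbtb18* was called, while *Jun*, a subunit of AP-1, had 16.34 to 16.49 in +/- and 16.64 to 16.99 in fl/- mice (0.32 ± 0.13, adjusted p = 0.0955). *Lhx2*, a homeobox factor, was detected on 1 of 8 arrays (adjusted p = 0.722). The transcripts *1110032E23Rik* (0.06 ± 0.18) and *5830415G21Rik* (0.05 ± 0.30) were not called with or without mouse 5.

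Large changes were also seen in probes without a symbol. The gene model mCG2395.1 had 12.19, 12.47, 12.44 and 12.30 in mice 1 to 4, 10.42 in mouse 5 and 7.27, 6.03 and 6.70 in mice 6 to 8, where it was below detection (-4.74 ± 1.08, adjusted p = 0.0153). Without mouse 5 its fitted fall was 51.3-fold, a size that is not exact because mice 6 to 8 were below detection. The model mCG7037.3 fell by 3.87 on the log2 scale (SE 0.51, adjusted p = 0.00119). In the other direction, mCG7636.2 was 10.03 to 10.85 in the +/- mice, 11.96 in mouse 5 and 15.76 to 16.05 in mice 6 to 8 (4.38 ± 1.03, adjusted p = 0.0175). The model mCG1207.2 was called higher (adjusted p = 0.0155), but it was detected on 1 of the 4 +/- arrays (6.29 to 8.56) and 3 of the 4 fl/- arrays (8.55 to 14.06), so the size of its rise is not given. In each of these 4 the fl/- value nearest to the +/- group was that of mouse 5. Without mouse 5, mCG22990.2 was also among the largest falls, with a fitted change of -4.44 ± 0.36 (adjusted p = 6.25e-06). It was detected on 1 of the arrays of mice 6 to 8, so this size is not exact. For 850 gene models 2 probes were tested, which gives a second measurement on the same array. Both probes were called in the same direction for 32 models and in opposite directions for 1, and 1 of the 2 was called for 119, where the other had the same sign in 91. Without mouse 5 these numbers were 78, 5, 199 and 136.

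The genotype effect was next set beside that in vehicle-treated macrophages of the same mice. With vehicle, 26 probes were called with all mice (0.156%; 0.0542% higher and 0.102% lower) and 2488 without mouse 5 (15.0%; 8.10% and 6.87%). The difference between the genotype effects with RSG and with vehicle was called for 1 probe (0.00602%; 574 had an unadjusted p under 0.05 in limma) and, without mouse 5, for 10 (0.0602%; 0.0181% more positive and 0.0421% more negative with RSG, 869 unadjusted). A larger number of calls with RSG is thus not in itself a difference between treatments. The 1 probe was mCG18625, chosen for this value, with a difference of -1.16 (adjusted p = 0.00619). With RSG it read 15.55, 15.70, 15.59 and 15.39 in mice 1 to 4 and 14.26, 14.40, 14.32 and 14.41 in mice 5 to 8. With vehicle all 8 mice lay between 14.13 and 14.37. The +/- mice were thus higher with RSG than with vehicle, and mouse 5, at 14.26 and 14.20, was near mice 6 to 8 with both treatments. The difference was also called in the fit that did not use mouse 5 (-1.13, adjusted p = 0.0131). On all 10 probes called in that fit, which belong to 9 gene models, the RSG-minus-vehicle change of mouse 5 was placed between the mean of the +/- mice (0) and that of mice 6 to 8 (1), as a description with no test. It lay at 0.534 to 1.22 on 9 of them, outside the range of the +/- mice. On the other, mCG22990.2, which had the largest response in the +/- mice, it lay at 0.139, within that range. The call was lost without each of mice 1, 2, 3, 6, 7 and 8, where no probe was called. With the mouse as a block, pairing the 2 arrays of each mouse, 23 probes were called. No named gene was called in this test, with or without mouse 5. With all mice, those at an unadjusted p under 0.05 were *Sfrp4* (a difference of 3.43), *Heg1* (1.55), *Pcdha3* (1.02) and *Tnfsf13* (-0.43), none of which passed the adjustment (adjusted p of at least 0.983).

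Of the 3385 probes called with RSG without mouse 5, 2038 (60.2%) were also called with vehicle in the same direction, which is 81.9% of the 2488 called with vehicle, and 4 were called in the opposite direction. The arrays differ but the mice are the same. The 1792 higher probes had a median change of 1.08 with RSG and 0.83 with vehicle, and the 1593 lower probes -0.95 and -0.71. The RSG calls were selected on the RSG arrays, which enlarges their RSG values. Among named genes the 2 treatments gave near-equal changes without mouse 5 for *Paqr3* (1.56 and 1.55) and *Crip1* (-1.38 and -1.31). *Hba-a1* and *H2-Q8* were called higher with both treatments, from below detection with RSG, so their sizes are not compared. *Ear1* had -3.45 with RSG and -2.71 with vehicle, and *Rnaset2b* 1.07 and 0.65. *Zfp945* and *Heg1* were called with RSG only, but the difference was not called for either. *Heg1* had a fitted change of 1.46 with RSG and of -0.23 with vehicle. With RSG it was below detection in +/- mice 1 and 2, so the first size is not exact. The +/- values of *Zfp945* with RSG were below detection, so its sizes are not compared.

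In RSG-treated iDCs of these mice, 1106 probes were called for genotype with all mice (6.65%; 3.29% higher and 3.37% lower) and 2654 without mouse 5 (16.0%; 8.98% and 6.99%). The effect differed between macrophages and iDCs for 1230 probes (7.40%), with a more positive change in macrophages for 738 (4.44%) and a more negative one for 492 (2.96%). Without mouse 5 it differed for 2868 (17.3%), 1467 (8.83%) and 1401 (8.43%) in these directions. Under median scaling the total with all mice was 1281, but the split was 1081 and 200, so the balance of directions depends on the scaling. Of the 3385 macrophage calls without mouse 5, 854 were also called in iDCs in the same direction (25.2%, and 32.2% of the 2654) and 181 in the opposite one.

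Of the 14 named probes called in macrophages with all mice, 2 were also called in iDCs, both in the same direction, and the difference between the cell types was called for 5. These shares, 14.3% and 35.7%, were near those of all 1550 called probes, 13.7% (212) and 32.8% (509). Without mouse 5, 8 of the 38 were called in iDCs in the same direction (21.1%, against 25.2%) and 2 in the opposite one (5.26%, against 5.35%), and the difference was called for 15 (39.5%, against 42.6%). Without mouse 5, *Ear1* changed by -3.45 in macrophages and -0.52 ± 0.35 in iDCs (adjusted p of the difference = 7.57e-05), where its levels were 16.74 to 18.32 in all 8 mice. *Zbtb18* changed by 1.51 and -0.08 ± 0.12 (adjusted p of the difference = 5.09e-06), *Rnaset2b* by 1.07 and -0.01 ± 0.12 (1.28e-05) and *Crip1* by -1.38 and 0.40 ± 0.15 (6.49e-07). With all mice these 4 differences had adjusted p of 0.0128, 0.00992, 0.00814 and 0.0329. *H2-Q8* was 15.22 to 16.72 in RSG-treated iDCs of both genotypes and changed there by 0.80 ± 0.19, against a rise of 3.82 from below detection in macrophages (adjusted p of the difference = 2.65e-05 without mouse 5, and 0.136 with all mice). *Hba-a1* was called higher in both cell types without mouse 5, with a fitted change of 1.55 ± 0.52 in iDCs. The difference was called too (adjusted p = 0.00142), but the +/- macrophage values are noise, so the 2 sizes are not compared. With all mice the change of *Hba-a1* in iDCs was 0.68 ± 0.78 (adjusted p = 0.606) and the difference was not called either (adjusted p = 0.167).

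*Paqr3* and *Tlr7* changed in opposite directions in the 2 cell types without mouse 5. *Paqr3* changed by 1.56 in macrophages and -0.70 ± 0.21 in iDCs (adjusted p = 0.0292 for the latter, and 4.21e-05 for the difference). *Tlr7* changed by 0.76 and -0.69 ± 0.20 (adjusted p = 0.0271 for the latter, and 0.0011 for the difference). With all mice the iDC changes of *Paqr3* (-0.59 ± 0.20, adjusted p = 0.0711) and *Tlr7* (-0.50 ± 0.25, adjusted p = 0.212) were not called, nor was that of *Paqr3* in macrophages, while both differences had adjusted p of 0.015 and 0.0193. In contrast, *Tceal9* fell by 0.91 in both cell types (adjusted p of the difference = 0.993). *Lhx2* and *Eraf*, which were at the noise in macrophages, changed in fl/- iDCs by -3.43 ± 0.50 and -3.40 ± 0.78 without mouse 5 (adjusted p = 0.000658 and 0.00862), and by -2.70 ± 0.65 and -3.30 ± 0.71 with all mice (adjusted p = 0.0241 and 0.0157).

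**Figure D5:**
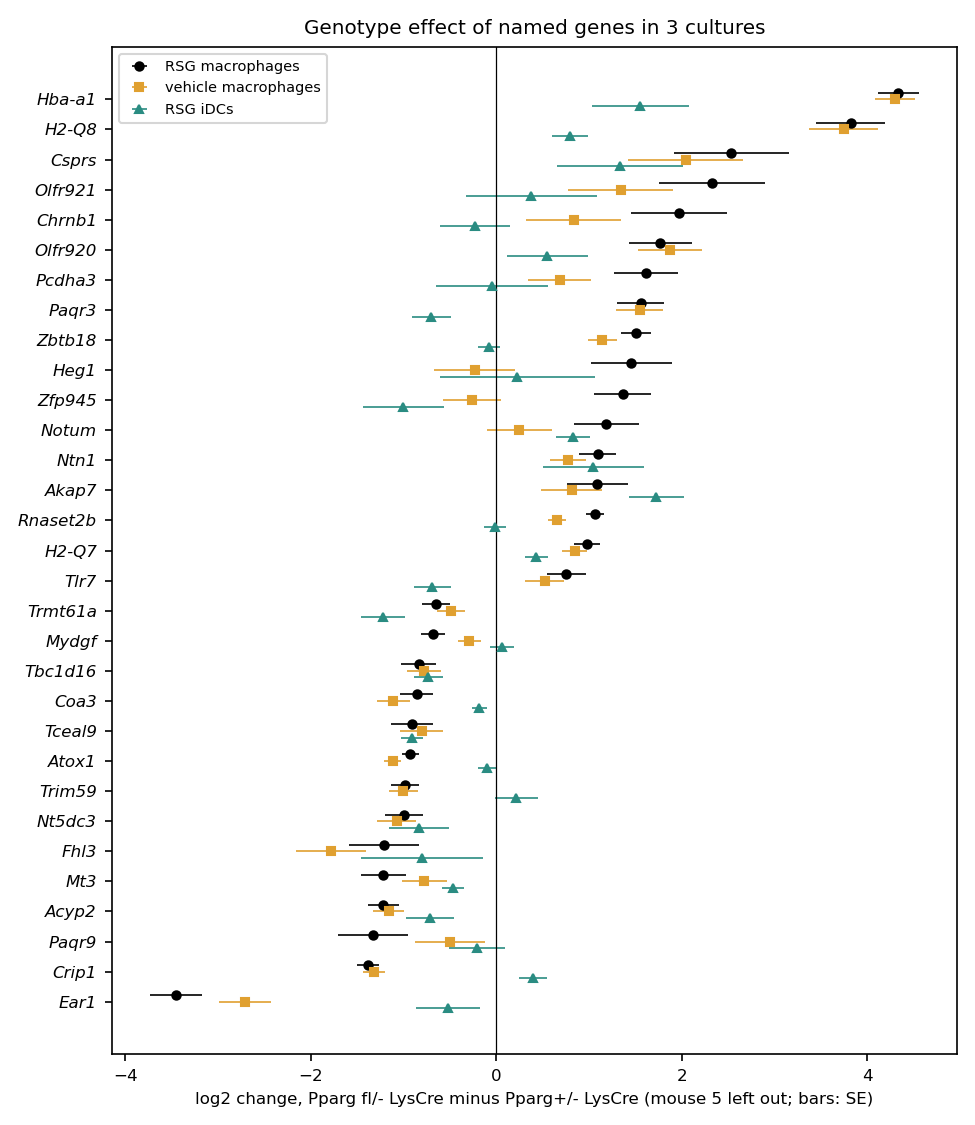
Log2 change between genotypes (fl/- minus +/-, mouse 5 left out) of the named genes called in RSG-treated macrophages, with the same genes in vehicle-treated macrophages and RSG-treated iDCs; points are estimates and bars their SE. The black and orange points lie close together for Paqr3 and Crip1, those of Hba-a1 and H2-Q8 stand for rises from below detection, and the green points of Ear1, Zbtb18 and Rnaset2b lie near 0.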

How the data were processed

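Total RNA of each culture was transcribed into DIG-labelled cRNA and hybridised to Applied Biosystems 1-colour arrays with chemiluminescent detection. Per the file headers, each deposited array file gives a signal intensity, its standard deviation and an S/N score for every probe; the software that made them is not given in the sources used here. Where the S/N was 1 or below, the deposited signal equals its standard deviation, so such values are noise. A table of ratios deposited by the authors (signal over a number per array and over the probe's median, floor 0.01; column medians 0.951 to 1.06) served as an alternative.

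Signals of the 33012 noncontrol probes were taken to log2 and quantile normalized over the 32 arrays. The 16 macrophage arrays were fitted with 1 mean per group in limma 3.58.1 (R 4.3.3), and all 32 for the comparison with iDCs, with Benjamini-Hochberg adjustment over 16620 probes; a call needs a change of 1.5-fold or more and an adjusted p under 0.05. Fits without mouse 5 drop all of its arrays. Symbols came from RefSeq (GRCm38.p6) for 316 probes and from the study's supplementary probe lists for 8. Named genes were the called ones with no overlap between groups (at most 15 in each direction, with and without mouse 5), members of the gene and marker lists with a tested probe, and a set of genes of interest; of several probes the brightest was used. Members and lists were chosen with earlier results of these data known. Cell type markers of macrophages, dendritic cells, neutrophils, lymphoid cells, megakaryocytes and stroma had no named probe. Scripts were tested on simulated data. The number of arrays limits the precision. Python 3.11.15, numpy 2.4.6, pandas 2.3.3 and matplotlib 3.10.9 were used. RSG- and vehicle-treated macrophages of 1 mouse are paired by the mouse number, and their deviations from the group means correlated at 0.00953 to 0.623 (median 0.298).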

Additional observations from a re-analysis of the deposited data

Results flagged for a closer look

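In 7 of 92 sets of 4 mice, 1 mouse lay far from the other 3 by Dixon's ratio, the gap to the nearest mouse over the whole range; chance gives this in about 1 in 20 sets. The ratio was 0.839 for *Ear1* in +/- mouse 3 (19.53, nearest 19.23), 0.837 for *Olfr921* in +/- mouse 4 (7.40, nearest 6.69) and 0.909 for the number of detected probes in +/- mouse 2 (15250, nearest 13959). Among fl/- mice it was 0.915 for *Hba-a1*, 0.939 for *Olfr920* and 0.830 for *Rnaset2b*, each in mouse 5, and 0.913 for *Paqr9* in mouse 6 (8.53, nearest 7.89).

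The genotype effect differed between RSG and vehicle for 1 probe with all mice and 10 without mouse 5, and between macrophages and iDCs under RSG for 1230 and 2868. For single named genes, the effect in macrophages minus that in iDCs (limma interaction, log2) with all mice was 2.24 for *Chrnb1*, -1.35 for *Crip1*, -2.48 for *Ear1*, 3.05 for *Eraf*, 3.07 for *Lhx2*, 1.78 for *Paqr3*, 0.88 for *Rnaset2b*, 1.20 for *Tlr7*, -0.68 for *Tnfsf13*, 1.28 for *Zbtb18* and 1.91 for *Zfp945* (adjusted p 0.00814 to 0.0405). Without mouse 5, genes with a more negative effect in macrophages were *Atox1* (-0.83), *Coa3* (-0.67), *Crip1* (-1.78), *Ear1* (-2.93), *Mydgf* (-0.75), *Tnfsf13* (-0.71) and *Trim59* (-1.20). Those with a more positive effect were *Cebpb* (0.79), *Chrnb1* (2.19), *Eraf* (2.85), *H2-Q7* (0.55), *H2-Q8* (3.03), *Hba-a1* (2.78), *Lhx2* (3.79), *Paqr3* (2.26), *Rnaset2b* (1.08), *Sgms2* (0.98), *Tlr7* (1.45), *Zbtb18* (1.58) and *Zfp945* (2.36). Their adjusted p ran from 6.49e-07 to 0.0354. In macrophages *Eraf* was below detection on all 8 arrays and *Lhx2* and *Chrnb1* were detected on 1 each, so their macrophage term is mostly noise in both fits. For *Hba-a1*, *H2-Q8* and *Zfp945* the +/- macrophage values were below detection, so the sizes of their differences are not exact.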

How the results depend on the processing

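With all mice, the 1550 calls for genotype became 647 with no detection filter, 690 with only the arrays compared, 759 at 2-fold and 187 with the methods' t-test after adjustment, and leaving out 1 mouse gave 504 to 3385. Under median scaling there were 760 higher and 425 lower (64.1% higher, against 54.8%). Without mouse 5, the 3385 calls became 5295 with no fold threshold and 1742 at 2-fold, and 2958 to 3332 with a further mouse left out. The 1 call for the difference between RSG and vehicle became 0 with median scaling, with the authors' ratios and with no detection filter, 4 with a stricter filter, 2 with all 32 arrays and 349 with the methods' t-test unadjusted, and leaving out 1 mouse gave 0 to 10. With the mouse as a replicate block, which pairs the RSG and vehicle arrays of a mouse, 23 probes were called, while the genotype effect had 1764 calls, or 3344 without mouse 5. The 1230 calls for the difference between macrophages and iDCs became 711 with no filter, 774 with only the arrays compared, 704 at 2-fold, and 712 and 2356 with the methods' t-test adjusted and unadjusted. Leaving out 1 mouse gave 429 to 2868 (556, 625 and 737 without mice 1, 2 and 3, 2868 without mouse 5, and 545 and 429 without mice 6 and 7), and the block gave 1810. Median scaling gave 84.4% more positive, against 60.0%, and moved the median over all probes from 0.03 to 0.16.

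The difference in detected probes between genotypes, 580, was 442.6 to 915.9 with 1 mouse left out (exact permutation p = 0.0571 to 0.371). The positions of the mice on their RSG-treated macrophages moved by less than the spread between mice with 100 or 500 probes and with median scaling, whereas those on iDCs moved further, under median scaling from 0.635 to 1.96 for mouse 8, 1.45 to 2.02 for mouse 7 and 0.237 to 0.765 for mouse 1. Of the 14 named genes called with all mice, 3 held under every alternative (*Ear1*, *Pcdha3* and *Rnaset2b*), as did 22 of the 31 named without mouse 5. Changes of sign came only in genes that were not called, with 1 mouse left out. The ranges with all mice were -0.093 to 0.23 for *1110032E23Rik*, -0.19 to 0.27 for *5830415G21Rik*, -0.13 to 1.07 for *Lhx2*, -0.82 to 0.0017 for *Nlrp3*, -0.026 to 0.24 for *Ramp3*, -0.34 to 0.16 for *Sfrp4* and -0.24 to 0.11 for *Sgms2*. Without mouse 5 they were -0.22 to 0.094 for *1110032E23Rik*, -0.31 to 0.028 for *5830415G21Rik*, -0.14 to 1.07 for *Lhx2* and -0.14 to 0.45 for *Sfrp4*. Of the calls without mouse 5, *Akap7*, *Fhl3*, *Heg1*, *Tlr7*, *Notum*, *Paqr9* and *Trmt61a* were lost when 1 further mouse was left out. The causes were not tested. Signals near the noise limit what can be said of *Hba-a1*, *H2-Q8*, *Olfr921* and *Chrnb1* in the +/- mice.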
